A study of Mus musculus with 15 samples.

Results

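The Wnt module described here comprises the genes for Wnt ligands, their receptors, the R-spondins and their receptors, the secreted inhibitors and the intracellular effectors. Members were taken by symbol: the Wnt, Fzd, Sfrp, Dkk and Rspo families together with Frzb, Wif1, Lrp5, Lrp6, Ror1, Ror2, Axin1, Axin2, Apc, Ctnnb1, Tcf7, Tcf7l1, Tcf7l2, Lef1, Lgr4, Lgr5, Notum, Nkd1, Nkd2, Znrf3 and Rnf43. That choice gave 62 genes of the 46603 in the files: 19 ligands, 10 Frizzled receptors, 4 co-receptors, 11 secreted inhibitors, 8 genes of the R-spondin axis, 6 intracellular components and 4 TCF/LEF factors. The rule uses symbols and no measured value.

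RNA was sequenced from mouse embryonic fibroblasts (MEFs) of strain BALB/c, taken from embryos of 10.5 days, that were knockout (KO), heterozygous (HET) or wild type (WT) for the beta-actin gene Actb. All cells, WT included, were grown to confluence on Matrigel and then kept in OsteoMax-XF osteogenic medium with dexamethasone and forskolin, each given in the labels as 5 mM, for up to 14 days. Forskolin activates adenylyl cyclase and dexamethasone is a glucocorticoid. The 15 libraries form 5 groups of 3: KO, HET and WT at day 14, and KO and WT at day 4. HET cells of day 4 and cells before the medium change were not analysed here. The labels call the cells chemically reprogrammed osteoblasts, give all of them one laboratory source, and do not say how many embryos or cell lines stand behind a genotype. They do not say either that replicates were separate cultures, so the p-values measure the spread between these libraries, which may be technical, and cell line and genotype cannot be told apart.

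Wnt ligands are secreted lipid-modified proteins that bind a Frizzled receptor together with Lrp5 or Lrp6, which stops the destruction complex of Axin and Apc from degrading beta-catenin. Stabilised beta-catenin enters the nucleus, binds TCF/LEF factors and turns on target genes, among them feedback inhibitors such as Axin2, Nkd1 and Notum. Other ligands, with Wnt5a as the best known, signal through Ror receptors without beta-catenin. In the osteoblast lineage the beta-catenin branch is known to promote bone formation and to hold back fat and cartilage fates.

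Counts in genes were 19878449 to 47486736 per library. Actb, the targeted gene, was at 43 to 46.5 CPM (CPM are counts scaled to a common library size, here by TMM) in KO, 1437 to 1642 in HET and 2947 to 3067 in WT libraries of day 14, and at 129.9 to 139 CPM in KO against 1164 to 1193 CPM in WT libraries of day 4. Of the osteoblast markers, Sp7, Ibsp and Dmp1 averaged at most 0.0622 CPM in any group. Bglap averaged at most 0.249 CPM and Bglap2 at most 0.186 CPM, so these defining genes were at or near 0 in all 5 groups. The other markers of the 10 in that list were expressed in some or all groups. Phex averaged 0.11 CPM in KO, 0.362 in HET and 0.109 CPM in WT cells of day 14. At day 4 Phex averaged 11.4 CPM in KO against 1.01 CPM in WT cells. Alpl, alkaline phosphatase, averaged 32 CPM in KO, 8.29 in HET and 128 CPM in WT cells of day 14, and 3.39 CPM in KO against 22 CPM in WT cells of day 4. Group means ran from 20.6 to 71.2 CPM for Runx2, from 1461 to 5068 CPM for Spp1 and from 107 to 1609.5 CPM for Col1a1. The 10 fibroblast markers, Col1a1 again among them, summed to 2688 to 2726 CPM in KO, 4433 to 4565 in HET and 2387 to 2419 CPM in WT libraries of day 14, and to 1887 to 1899 CPM in KO against 1366 to 1372 CPM in WT libraries of day 4. Of these, Dcn averaged 42.5 CPM in KO, 662 in HET and 503 CPM in WT cells of day 14, and Col1a2 averaged 0.117 CPM in KO, 489 in HET and 0.31 CPM in WT cells of day 14. The 6 smooth muscle markers summed to 532.8 to 556.1 CPM in KO, 78.7 to 91.8 in HET and 31.7 to 35.6 CPM in WT libraries of day 14. At day 4 they summed to 2885 to 2919 CPM in KO against 2.44 to 2.86 CPM in WT libraries. In HET and in WT cells 1 of the 6 held no more than 3 counts in a group. The 5 adipocyte markers summed to 411.8 to 430.1 CPM in KO, 220.4 to 343.9 in HET and 11.5 to 16.2 CPM in WT libraries of day 14, with 4 of the 5 at no more than 3 counts in KO and in HET and 3 of the 5 in WT. Over all 15 libraries the 4 chondrocyte markers summed to 3.62 to 32.4 CPM, the 4 epithelial ones to 0.137 to 4.21, the 4 endothelial ones to 0.634 to 14.4 and the 5 of macrophages and blood to 3.18 to 39.1 CPM. Single genes made up nearly all of some sums. Fabp4 averaged 419 CPM in KO, 262 in HET and 13.7 CPM in WT cells of day 14, with the other adipocyte markers near 0. In KO cells of day 14 Sox9 averaged 30.5 CPM and the other chondrocyte markers at most 0.213 CPM. Cd68 averaged 37.9 CPM there and the other markers of macrophages and blood at most 0.0566 CPM. Such sums do not show a cell type. The summed levels moved with genotype, as did the Wnt members below, and their part in the results was not tested. HET replicate 2 stood apart from the other HET libraries: the chi-square per gene against them was 48.7 and 49.2, against 2.84 between HET replicates 1 and 3, so results with HET cells are also given without it where they change. WT libraries of day 14, to which KO and HET of day 14 are compared, gave 4.93 to 18.1, and those of the other 3 groups 2.15 to 2.99.

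Of the 62 members, 44 passed the filter on low counts and were tested, and 18 did not. Those 18 reached at most 41 counts summed over the 3 libraries of any group: Wnt2 had 41, Nkd1 31, Dkk2 17, Wnt3 16, Lgr5 14 and Wnt1 8, and Ror1, Wnt3a, Dkk4, Wnt16, Wnt7a, Dkk1, Fzd10, Wnt8b, Wnt8a, Wnt9b, Sfrp5 and Rspo4 had 6 or fewer. Lgr5, Ror1 and the ligands Wnt1, Wnt3 and Wnt3a, which are widely used as markers or activators of the pathway, are among them and held at most 16 counts in any group. The filter keeps a gene on the level of its highest group, so the counts below describe the 44 and not the whole module. Exons of Axin2, Ctnnb1, Fzd5, Fzd6, Lef1, Notum, Sfrp2, Tcf7l1, Wnt5a, Wnt7b and Wnt11 overlap those of another counted gene, and in these libraries, whose kit does not mark strand, reads of the overlap cannot be told apart. The plot of all 44 levels by library shows where each gene was read.

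**Figure D1:**
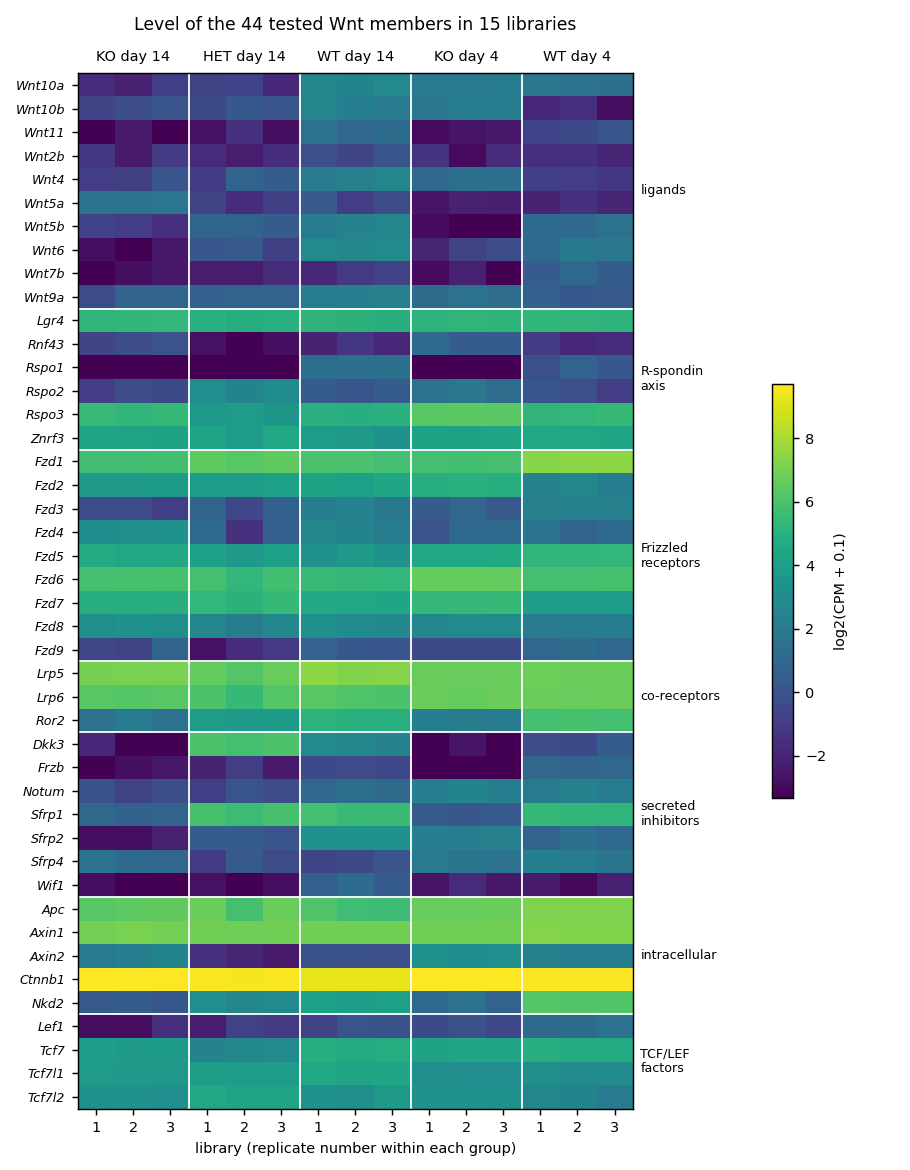
Level of each of the 44 tested members (rows, by role) in each of the 15 libraries (columns, by group and replicate number), as log2(CPM + 0.1). Rows of all ligands but Wnt5a and Wnt7b have their highest mean in WT cells of day 14, and the row of Rspo1 is at its floor in all KO and HET libraries.

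Most tested members differed between genotypes, and at day 14 more were lower than higher in cells that lacked Actb. In KO against WT at day 14, 12 members were higher and 26 lower, when 63.1% of all 15296 tested genes were called (30.9% higher and 32.2% lower). The median log2 change was -0.77 over the 44 members and -0.02 over all genes. Among the 31 members at or above the filter level of 0.431 CPM in both groups, 11 were higher (35.5%) and 14 lower (45.2%), next to 32.8% and 31.4% of all genes at that level, so the excess of lower members was smaller there. In bulk RNA, fewer cells of a type and less RNA per cell cannot be told apart.

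With 1 copy of Actb, in HET against WT at day 14, 10 members were higher and 26 lower, when 58.3% of all genes were called (28.3% higher, 29.9% lower); without HET replicate 2 the counts were 11 and 24. This comparison and KO against WT share their WT libraries. In KO against HET, 14 members were higher and 14 lower, when 59.5% of all genes were called (29.4% higher, 30.1% lower). Here the counts were 13 and 14 without HET replicate 2. At day 4, 14 members were higher and 18 lower in KO cells than in WT cells, when 69.5% of all genes were called (35.7% higher, 33.8% lower), with a median log2 change of -0.24 over the members and 0.03 over all genes. Whether these counts differ between the days was not tested.

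The change between days was also compared between KO and WT cells. In KO cells 7 members were higher and 21 lower at day 14 than at day 4, when 60.9% of all genes were called (30.8% higher, 30.1% lower). In WT cells 21 were higher and 17 lower, when 74.6% of all genes were called (39.7% higher, 34.9% lower). The interaction of genotype and day, which tests whether the change between days differs between KO and WT cells, was called for 31 members, 15 higher and 16 lower, when 64.7% of all genes were called (30.7% higher, 34.0% lower). A positive interaction means that the change from day 4 to day 14 was more positive in KO than in WT cells.

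Ligand genes were mostly lower in cells without 1 or both copies of Actb at day 14. Of the 10 tested ligand genes, 9 were lower and 1, Wnt5a, was higher in KO cells than in WT cells at day 14, and 8 were lower and none higher in HET than in WT cells, next to 32.2% lower and 30.9% higher of all genes for KO and 29.9% lower and 28.3% higher for HET. The filter level of 0.431 CPM was reached by 4 of the 10 in both KO and WT, of which 1 was higher and 3 lower, and by 5 in both HET and WT, all 5 lower. Summed over all 19 ligand genes and divided by exon length, the ligand level was 1.26, 1.52 and 1.92 CPM per kb in KO, 2.31, 2.87 and 2.15 in HET and 12.4, 12.3 and 13.8 CPM per kb in WT libraries of day 14. Every KO and HET library lay far below every WT one. At day 4 the sums were 4.06, 4.73 and 5.03 CPM per kb in KO and 4.55, 4.92 and 4.92 CPM per kb in WT libraries, and the ranges overlapped. The leading ligand by level per kb also differed: Wnt9a and Wnt5a had the largest mean shares in KO cells of day 14, with 16.2% to 36.1% and 22.1% to 32.2% of the ligand sum, whereas in WT cells of day 14 Wnt6 had 23.9% to 25.7% and Wnt10a 19.4% to 20.9%.

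Wnt10a and Wnt10b encode related ligands that act through beta-catenin, and Wnt10b is known in mice to raise bone mass and to block fat cell formation. At day 14 Wnt10a had 0.211, 0.137 and 0.435 CPM in KO, 0.479, 0.526 and 0.18 in HET and 6.4, 5.89 and 6.96 CPM in WT libraries. KO and HET libraries were all far below WT, with a log2 change of -4.56 ± 0.37 (edgeR adjusted p = 2.05e-09) for KO and a log2 change of -4.03 ± 0.34 (edgeR adjusted p = 6.13e-09) for HET. The KO value was -5.15 without KO day 14 replicate 3. At day 4 Wnt10a had 4.04, 3.93 and 4.57 CPM in KO against 3.45, 2.86 and 2.74 CPM in WT libraries. The small difference (log2 change 0.46 ± 0.20, edgeR adjusted p = 0.0451) lost its call without KO day 4 replicates 1, 2 or 3 or WT day 4 replicates 2 or 3 (edgeR adjusted p = 0.0642 to 0.15), and with the replicate block, with RLE scaling and with no filter. Wnt10b had 0.55, 0.732 and 0.988 CPM in KO, 0.623, 1.1 and 0.947 in HET and 5.93, 4.92 and 3.93 CPM in WT libraries of day 14. It was thus lower in KO cells than in WT (log2 change -2.69 ± 0.30, edgeR adjusted p = 6.9e-07) and in HET than in WT (log2 change -2.47 ± 0.30, edgeR adjusted p = 1.88e-06). At day 4 the order was the other way round, with 3.47, 4.6 and 4.32 CPM in KO against 0.183, 0.234 and 0.0421 CPM in WT libraries and no overlap (log2 change 4.58 ± 0.42, edgeR adjusted p = 5.04e-09).

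**Figure D2:**
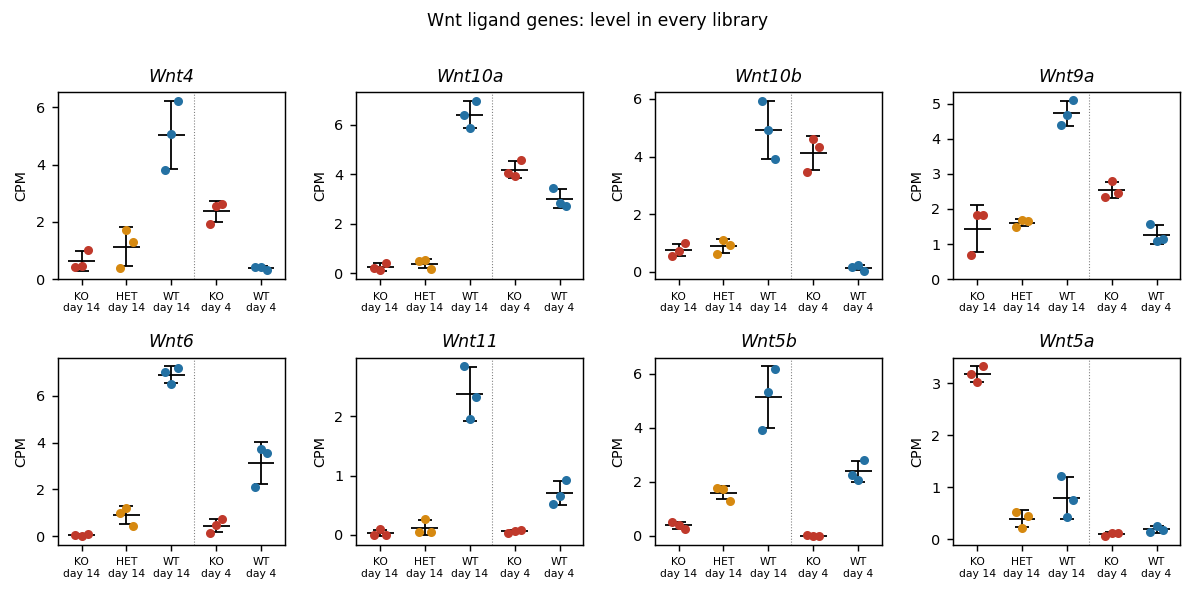
CPM of 8 ligand genes in each library (points), with mean (bar) and SD (error bar) of the 3 libraries of a group; KO, HET and WT of day 14 stand left of the dotted line and KO and WT of day 4 right of it. In 7 panels the mean is highest in WT cells of day 14, and in the panel of Wnt5a it is highest in KO cells of day 14.

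Wnt4, a ligand needed for kidney and female gonad development, followed the same course. It had 0.423, 0.457 and 1.03 CPM in KO, 0.383, 1.73 and 1.31 in HET and 3.83, 5.06 and 6.22 CPM in WT libraries of day 14, and no KO or HET library reached a WT one. For Wnt4, KO over WT gave a log2 change of -2.95 ± 0.41 (edgeR adjusted p = 7.74e-06). Wnt4 in HET over WT gave a log2 change of -2.15 ± 0.37 (edgeR adjusted p = 0.000112). At day 4 Wnt4 had 1.93, 2.56 and 2.61 CPM in KO against 0.434, 0.416 and 0.337 CPM in WT libraries. Wnt4 was higher in all KO libraries (log2 change 2.54 ± 0.43, edgeR adjusted p = 3.57e-05). Wnt9a, a ligand of joint and skeletal development, had 0.677, 1.83 and 1.82 CPM in KO, 1.48, 1.68 and 1.67 in HET and 4.39, 4.69 and 5.09 CPM in WT libraries of day 14. KO and HET overlapped each other and both lay below WT, with a log2 change of -1.71 ± 0.27 for KO (edgeR adjusted p = 3.67e-05) and -1.55 ± 0.27 for HET (edgeR adjusted p = 0.000108). At day 4 Wnt9a had 2.35, 2.78 and 2.45 CPM in KO against 1.58, 1.09 and 1.14 CPM in WT libraries. Wnt9a was higher in each KO library (log2 change 0.97 ± 0.26, edgeR adjusted p = 0.00318).

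Wnt6, Wnt11 and Wnt5b were lower in KO cells on both days. Wnt6, a ligand of epithelial tissues that is known to restrain fat cell formation in mouse precursors, had 0.0423, 0 and 0.0791 CPM in KO, 1.01, 1.21 and 0.451 in HET and 7.0, 6.49 and 7.2 CPM in WT libraries of day 14. KO libraries held only 3 counts in all, HET lay between, and the level was lower in KO cells than in WT by 163-fold by summed counts (95% counting interval 55.3 to 792; edgeR adjusted p = 3.69e-08). HET was lower than WT as well (log2 change -2.97 ± 0.39, edgeR adjusted p = 4.41e-06). At day 4 Wnt6 had 0.151, 0.48 and 0.715 CPM in KO against 2.08, 3.71 and 3.54 CPM in WT libraries. Wnt6 libraries did not overlap (log2 change -2.75 ± 0.41, edgeR adjusted p = 9.82e-06). Wnt11, which acts mainly without beta-catenin, had 0, 0.0915 and 0 CPM in KO, 0.0479, 0.263 and 0.0451 in HET and 2.85, 1.95 and 2.34 CPM in WT libraries of day 14. It was lower in KO cells than in WT by 84.2-fold by summed counts (95% counting interval 22.9 to 701; edgeR adjusted p = 7.89e-07). In HET it was lower as well (log2 change -4.33 ± 0.68, edgeR adjusted p = 4.92e-06). Most HET counts came from replicate 2, and the HET level was lower than WT by 51.2-fold by summed counts without HET day 14 replicate 2 (95% counting interval 13.9 to 426). At day 4 Wnt11 had 0.0302, 0.064 and 0.0825 CPM in KO against 0.526, 0.649 and 0.927 CPM in WT libraries. For Wnt11 this was a log2 change of -3.42 ± 0.73 (edgeR adjusted p = 9.26e-05).

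Wnt5a and Wnt5b, close relatives that signal mainly without beta-catenin, parted at day 14. Wnt5a had 3.17, 3.02 and 3.32 CPM in KO, 0.527, 0.21 and 0.451 in HET and 1.21, 0.417 and 0.748 CPM in WT libraries of day 14. Each KO library was above every HET and WT one, with a log2 change of 1.99 ± 0.34 (edgeR adjusted p = 8.36e-05) against WT and a log2 change of 2.97 ± 0.39 (edgeR adjusted p = 4.5e-06) against HET. HET and WT overlapped and did not pass the test (log2 change -0.98 ± 0.43, edgeR adjusted p = 0.0587). At day 4 Wnt5a was near its floor in both genotypes, with 0.0604, 0.128 and 0.11 CPM in KO against 0.137, 0.26 and 0.169 CPM in WT libraries. All KO libraries were below WT, but the test was not passed (log2 change -0.90 ± 0.61, edgeR adjusted p = 0.177). Wnt5b had 0.507, 0.412 and 0.237 CPM in KO, 1.77, 1.73 and 1.31 in HET and 3.92, 5.33 and 6.17 CPM in WT libraries of day 14. The 3 genotypes did not overlap, and both KO (log2 change -3.73 ± 0.34, edgeR adjusted p = 3.44e-08) and HET (log2 change -1.68 ± 0.25, edgeR adjusted p = 2.84e-05) were lower than WT. At day 4 the KO libraries held 1, 0 and 0 counts, or 0.0302, 0 and 0 CPM, against 2.26, 2.08 and 2.82 CPM in WT libraries, lower in KO by 234-fold by summed counts (95% counting interval 41.6 to 9276; edgeR adjusted p = 3.45e-09).

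The remaining tested ligands were low. Wnt2b averaged 0.275 ± 0.161 CPM in KO, 0.174 ± 0.062 in HET and 0.777 ± 0.213 CPM in WT cells of day 14 (SD, n = 3 each). It was lower in HET than in WT (log2 change -2.11 ± 0.63, edgeR adjusted p = 0.00542), and its lower level in KO (log2 change -1.46 ± 0.54, edgeR adjusted p = 0.0234) lost its call without KO day 14 replicate 2 or WT day 14 replicates 1 or 3 (edgeR adjusted p = 0.0503 to 0.103). Wnt7b, a ligand expressed by osteoblasts in mouse bone, averaged 0.0527 ± 0.0669 CPM in KO and 1.52 ± 0.352 CPM in WT cells of day 4 (SD, n = 3 each), with a log2 change of -4.81 ± 0.80 (edgeR adjusted p = 2.25e-06). KO counts were 5 in all, and the KO level was lower by 106-fold by summed counts without KO day 4 replicate 2 (95% counting interval 18.8 to 4221), and the log2 change was -4.21 without KO day 4 replicate 3. At day 14 it averaged 0.0416 ± 0.0397 CPM in KO, 0.142 ± 0.0723 in HET and 0.342 ± 0.143 CPM in WT cells (SD, n = 3 each), lower in KO cells than in WT by 8.07-fold by summed counts (95% counting interval 2.42 to 42.1; edgeR adjusted p = 0.0069).

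In the R-spondin axis the 3 tested R-spondins each took a different course. R-spondins are secreted proteins that bind Lgr receptors and remove the ubiquitin ligases Znrf3 and Rnf43 from the membrane, which leaves more Frizzled receptor at the surface. Rspo1 (chr4:124986430-125009099, plus strand, GRCm38) held no count in any KO library of either day or in any HET library. In WT libraries it had 2.47, 2.69 and 2.71 CPM at day 14 and 0.823, 1.58 and 1.05 CPM at day 4. With the empty group set at 3 counts over its 3 libraries, Rspo1 was at least 62-fold lower in KO cells than in WT at day 14 (edgeR adjusted p = 3.97e-06), at least 54.3-fold lower in HET than in WT at day 14 (edgeR adjusted p = 5.5e-06) and at least 38.7-fold lower in KO cells than in WT at day 4 (edgeR adjusted p = 7.49e-06). These bounds cover counting error only.

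Rspo2, an R-spondin of limb and lung development, was high in HET cells. It had 0.423, 0.732 and 0.672 CPM in KO, 8.14, 5.84 and 8.11 in HET and 1.31, 0.974 and 1.26 CPM in WT libraries of day 14. All HET libraries exceeded all others, with a log2 change of 2.64 ± 0.27 (edgeR adjusted p = 3.9e-07) against WT and a log2 change of -3.59 ± 0.31 for KO over HET (edgeR adjusted p = 3.08e-08). KO was lower than WT (log2 change -0.95 ± 0.35, edgeR adjusted p = 0.0251), a call lost without KO day 14 replicate 1 or WT day 14 replicates 1 or 3 (edgeR adjusted p = 0.066 to 0.103). At day 4 Rspo2 had 2.84, 3.61 and 2.42 CPM in KO against 1.03, 0.805 and 0.421 CPM in WT libraries. Rspo2 was higher in each KO library (log2 change 1.89 ± 0.27, edgeR adjusted p = 1.01e-05). Rspo3, the R-spondin of vascular and placental development and the most abundant of the 3 by CPM per kb, had 43.3, 37.8 and 43.1 CPM in KO, 12.5, 14.7 and 11.9 in HET and 30.3, 28.8 and 31.6 CPM in WT libraries of day 14. KO libraries were highest and HET lowest, without overlap. For Rspo3, KO over WT gave a log2 change of 0.45 ± 0.08 (edgeR adjusted p = 0.000111). Rspo3 in HET over WT gave a log2 change of -1.22 ± 0.08 (edgeR adjusted p = 5.79e-09). At day 4 Rspo3 had 82.4, 85.1 and 82.2 CPM in KO against 38.2, 40.1 and 42.3 CPM in WT libraries. Rspo3 was higher in all KO libraries (log2 change 1.05 ± 0.07, edgeR adjusted p = 3.48e-09).

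The receptor Lgr4 moved little, and of both ligases Rnf43 moved more than Znrf3. Lgr4, an R-spondin receptor, averaged 38.3 ± 1.56 CPM in KO, 29.4 ± 2.54 in HET and 32.9 ± 2.86 CPM in WT cells of day 14 (SD, n = 3 each). Its slightly higher level in KO than in WT (log2 change 0.22 ± 0.08, edgeR adjusted p = 0.0198) lost its call without KO day 14 replicate 3 or WT day 14 replicates 2 or 3 (edgeR adjusted p = 0.0512 to 0.106). Znrf3 averaged 19.3 ± 1.23 CPM in KO, 18.6 ± 4.01 in HET and 12.6 ± 2.48 CPM in WT cells of day 14 (SD, n = 3 each). It was higher in KO (log2 change 0.61 ± 0.15, edgeR adjusted p = 0.00171). HET was higher too (log2 change 0.56 ± 0.15, edgeR adjusted p = 0.00364), though its libraries overlapped those of WT. Rnf43 was low, with averages of 0.73 ± 0.18 CPM in KO, 0.031 ± 0.0269 in HET and 0.217 ± 0.096 CPM in WT cells of day 14 (SD, n = 3 each). It was higher in KO cells than in WT at day 14 (log2 change 1.73 ± 0.50, edgeR adjusted p = 0.00464) and at day 4 (log2 change 2.50 ± 0.40, edgeR adjusted p = 2.33e-05). Its lower level in HET than in WT, by 6.75-fold by summed counts (95% counting interval 1.55 to 61.2; edgeR adjusted p = 0.0156), lost its call without HET day 14 replicate 2 or WT day 14 replicate 2 (edgeR adjusted p = 0.0571 to 0.0682).

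Frizzled receptors, the membrane receptors of Wnt ligands, changed in both directions. Of 9 tested genes, 3 were higher, 3 lower and 3 not called in KO against WT at day 14, and 4 were higher, 4 lower and 1 not called in HET against WT. The 33.3% each way for KO was near the 30.9% higher and 32.2% lower of all genes. For HET it was 44.4% each way, next to 28.3% higher and 29.9% lower of all genes. Summed over the family, the level was 40.6, 41.1 and 42.7 CPM per kb in KO, 49.6, 41.9 and 51.5 in HET and 38.9, 38.2 and 35.5 CPM per kb in WT libraries of day 14, and 55.3, 56.7 and 56.2 CPM per kb in KO against 64.7, 67 and 66.3 CPM per kb in WT libraries of day 4. The family total thus differed far less between genotypes at day 14 than the ligand total did in the same libraries; this contrast was not tested. Fzd1 was the most abundant Frizzled gene per kb in all groups but KO of day 4, where Fzd6 led.

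Fzd1 had 51.6, 52.6 and 54.4 CPM in KO, 87.6, 79.9 and 92.2 in HET and 62.1, 63 and 56.9 CPM in WT libraries of day 14, with HET the highest (HET over WT, log2 change 0.51 ± 0.06, edgeR adjusted p = 2.36e-06). KO was lower than WT by a small step (log2 change -0.20 ± 0.06, edgeR adjusted p = 0.0097), which was not called with no filter. At day 4 Fzd1 had 56.3, 54.8 and 58.5 CPM in KO against 168, 175 and 174 CPM in WT libraries. Fzd1 was lower in all KO libraries (log2 change -1.61 ± 0.06, edgeR adjusted p = 1.34e-12). Fzd2 had 13.2, 13 and 13.5 CPM in KO, 14.9, 15.8 and 17.7 in HET and 17.9, 17.1 and 19.8 CPM in WT libraries of day 14, lower in KO cells than in WT (log2 change -0.47 ± 0.11, edgeR adjusted p = 0.00194). At day 4 it went the other way, with 28.1, 32 and 28.5 CPM in KO against 5.44, 6.39 and 4.34 CPM in WT libraries. For Fzd2 this was a log2 change of 2.43 ± 0.11 (edgeR adjusted p = 2.27e-11). Fzd7, a receptor of the beta-catenin branch in stem and progenitor cells, had 28.8, 27.6 and 28.5 CPM in KO, 39.1, 33.2 and 42.3 in HET and 23.1, 22.5 and 20.0 CPM in WT libraries of day 14. HET was highest and WT lowest. For Fzd7, KO over WT gave a log2 change of 0.37 ± 0.08 (edgeR adjusted p = 0.00103). Fzd7 in HET over WT gave a log2 change of 0.81 ± 0.08 (edgeR adjusted p = 5.09e-07). At day 4 Fzd7 had 41.4, 41.3 and 41.7 CPM in KO against 15.5, 15.7 and 14.8 CPM in WT libraries. Fzd7 was higher in KO (log2 change 1.43 ± 0.08, edgeR adjusted p = 2.16e-10).

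Fzd3, a receptor of planar polarity and axon guidance, was lower without Actb. It had 0.677, 0.686 and 0.435 CPM in KO, 1.72, 0.578 and 1.53 in HET and 4.43, 5.33 and 3.65 CPM in WT libraries of day 14, below WT in all KO (log2 change -2.90 ± 0.35, edgeR adjusted p = 1.09e-06) and HET libraries (log2 change -1.78 ± 0.30, edgeR adjusted p = 6.55e-05). At day 4 Fzd3 had 1.3, 1.85 and 1.13 CPM in KO against 4.98, 5.4 and 4.93 CPM in WT libraries. For Fzd3 this was a log2 change of -1.85 ± 0.26 (edgeR adjusted p = 9.36e-06). Fzd5, in contrast, had 26.2, 22.1 and 23.3 CPM in KO, 17, 13.2 and 16.6 in HET and 9.38, 12.7 and 10.2 CPM in WT libraries of day 14. KO was highest and HET between. For Fzd5, KO over WT gave a log2 change of 1.15 ± 0.11 (edgeR adjusted p = 3.56e-07). Fzd5 in HET over WT gave a log2 change of 0.54 ± 0.12 (edgeR adjusted p = 0.00104). At day 4 Fzd5 had 22.4, 21.5 and 24.1 CPM in KO against 37.5, 37.7 and 39 CPM in WT libraries. Fzd5 was lower in KO (log2 change -0.75 ± 0.10, edgeR adjusted p = 7.99e-06).

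Fzd4, also the receptor of Norrin in retinal vessels, and Fzd9, which is known to act in osteoblasts, were lowest in HET cells. Fzd4 had 8.12, 8.74 and 9.57 CPM in KO, 2.11, 0.263 and 1.4 in HET and 6.02, 5.71 and 4.44 CPM in WT libraries of day 14. HET was below WT (log2 change -2.07 ± 0.42, edgeR adjusted p = 0.000363), and KO against WT did not pass the test (log2 change 0.71 ± 0.32, edgeR adjusted p = 0.0656) although its libraries did not overlap those of WT. At day 4 Fzd4 had 0.905, 2.08 and 2.09 CPM in KO against 2.97, 1.74 and 2.28 CPM in WT libraries. Fzd4 libraries overlapped (log2 change -0.47 ± 0.37, edgeR adjusted p = 0.276). Fzd9 had 0.592, 0.549 and 1.78 CPM in KO, 0.0479, 0.21 and 0.361 in HET and 1.59, 1.11 and 1.03 CPM in WT libraries of day 14. HET was below WT (log2 change -2.55 ± 0.61, edgeR adjusted p = 0.000866), and the log2 change was -3.26 without HET day 14 replicate 3. The third KO library stood above the other KO libraries, and the log2 change of KO over HET, 2.22 ± 0.61 (edgeR adjusted p = 0.00286), was 1.43 without KO day 14 replicate 3 and 2.93 without HET day 14 replicate 3. At day 4 Fzd9 had 0.634, 0.672 and 0.66 CPM in KO against 1.87, 2.31 and 2.02 CPM in WT libraries. Fzd9 was lower in KO (log2 change -1.65 ± 0.39, edgeR adjusted p = 0.00129). Fzd6 averaged 58.8 ± 2.87 CPM in KO, 51.1 ± 9.58 in HET and 41.8 ± 2.58 CPM in WT cells of day 14 (SD, n = 3 each). Fzd8 averaged 9.24 ± 0.557 CPM in KO, 5.73 ± 1.1 in HET and 7.81 ± 1.26 CPM in WT cells of day 14 (SD, n = 3 each). Fzd6 was higher in KO cells than in WT (log2 change 0.49 ± 0.10, edgeR adjusted p = 0.000521). Its higher level in HET (log2 change 0.29 ± 0.10, edgeR adjusted p = 0.0223) lost its call without HET day 14 replicates 1 or 3 or WT day 14 replicates 2 or 3 (edgeR adjusted p = 0.0546 to 0.126). Fzd8 in KO did not pass the test (log2 change 0.24 ± 0.14, edgeR adjusted p = 0.154). Fzd8 was lower in HET than in WT (log2 change -0.44 ± 0.15, edgeR adjusted p = 0.0197), a call lost without HET day 14 replicate 2 or WT day 14 replicate 1 (edgeR adjusted p = 0.0861 to 0.109). At day 4 Fzd6 (log2 change 0.74 ± 0.10, edgeR adjusted p = 4.26e-06) and Fzd8 (log2 change 0.68 ± 0.14, edgeR adjusted p = 0.000533) were higher in KO cells than in WT.

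Among the co-receptors, Ror2 changed most. Ror2, a receptor tyrosine kinase that binds Wnt5a (chr13:53109312-53286124, minus strand, GRCm38), had 2.79, 4.07 and 2.96 CPM in KO, 14.8, 12.7 and 13.7 in HET and 34.8, 31 and 30.6 CPM in WT libraries of day 14. The genotypes formed 3 separate levels, with HET between. For Ror2, KO over WT gave a log2 change of -3.30 ± 0.12 (edgeR adjusted p = 2.15e-12). Ror2 in HET over WT gave a log2 change of -1.22 ± 0.10 (edgeR adjusted p = 3.51e-08). At day 4 Ror2 had 4.65, 4.32 and 4.21 CPM in KO against 55.9, 61.4 and 56.3 CPM in WT libraries. For Ror2 this was a log2 change of -3.72 ± 0.11 (edgeR adjusted p = 6.6e-14). Relative to WT, KO cells of day 14 thus had more transcript of the ligand Wnt5a and less of its receptor Ror2. Within KO cells of day 14 the averages were alike, at 3.17 CPM for Wnt5a and 3.28 CPM for Ror2. Lrp5 and Lrp6, the co-receptors of the beta-catenin branch, differed less between genotypes than Ror2 did. Lrp5 averaged 135 ± 1.58 CPM in KO, 92.9 ± 16.3 in HET and 166 ± 13.8 CPM in WT cells of day 14 (SD, n = 3 each). Lrp5 was lower in HET than in WT (log2 change -0.84 ± 0.09, edgeR adjusted p = 1.54e-06), and its smaller difference in KO (log2 change -0.30 ± 0.09, edgeR adjusted p = 0.0103) lost its call without WT day 14 replicate 1 (edgeR adjusted p = 0.0531). Lrp6 averaged 79.7 ± 1.53 CPM in KO, 62.2 ± 17.1 in HET and 71.7 ± 7.98 CPM in WT cells of day 14 (SD, n = 3 each). It passed the test in neither KO (log2 change 0.15 ± 0.14, edgeR adjusted p = 0.354) nor HET (log2 change -0.20 ± 0.14, edgeR adjusted p = 0.234) against WT.

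By summed level at day 14, secreted inhibitors were lowest in KO cells, and highest in HET cells only with Dkk3 counted. In HET cells Dkk3 had 56.7% to 57.8% and Sfrp1 37.4% to 40.5% of that sum. Dkk3 had 8.46% to 10.15% in WT cells of day 14. Without Dkk3 the rest of the sum was lower in HET than in WT libraries. Of 7 tested genes, 6 were lower and 1, Sfrp4, was higher in KO cells than in WT at day 14, next to 32.2% lower and 30.9% higher of all genes. Only 3 of the 7 were at or above the filter level in both KO and WT, of which 1 was higher and 2 lower. In HET against WT, 4 were lower, 1, Dkk3, was higher, and 2 were not called, next to 29.9% lower and 28.3% higher of all genes; of the 5 at or above the filter level in both, 1 was higher and 2 lower. Over all 11 genes the summed level was 1.71, 1.13 and 1.28 CPM per kb in KO, 34.5, 29.4 and 34.4 in HET and 21.2, 19.4 and 19.1 CPM per kb in WT libraries of day 14. With Dkk3 counted, KO libraries were lowest and HET libraries highest, with no overlap. At day 4 the sum was 5.53, 5.77 and 5.34 CPM per kb in KO against 13.8, 13.9 and 13.2 CPM per kb in WT libraries, again lower in every KO library.

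Secreted Frizzled-related proteins bind Wnt ligands outside the cell. Sfrp1 had 1.95, 1.55 and 1.66 CPM in KO, 61.1, 48.2 and 59.6 in HET and 56.3, 46.2 and 47.2 CPM in WT libraries of day 14. KO stood apart at a low level (log2 change -4.85 ± 0.15, edgeR adjusted p = 1.41e-13), and HET overlapped WT (log2 change 0.17 ± 0.09, edgeR adjusted p = 0.127). The same held at day 4, with 1.18, 1.06 and 1.21 CPM in KO against 40.9, 38 and 37 CPM in WT libraries. For Sfrp1 this was a log2 change of -5.07 ± 0.15 (edgeR adjusted p = 2.6e-14). Sfrp2 had 0.0423, 0.0457 and 0.119 CPM in KO, 1.34, 1.31 and 0.992 in HET and 9.43, 9.74 and 9.95 CPM in WT libraries of day 14. Almost no Sfrp2 was left in KO (log2 change -7.01 ± 0.65, edgeR adjusted p = 1.17e-11), and HET was between (log2 change -3.00 ± 0.20, edgeR adjusted p = 1.43e-09). The KO level was lower than WT by 221-fold by summed counts without KO day 14 replicate 3 (95% counting interval 60.9 to 1828) and lower than HET by 27.5-fold by summed counts without KO day 14 replicate 3 (95% counting interval 7.35 to 231). At day 4 Sfrp2 had 4.86, 4.73 and 4.98 CPM in KO against 1.71, 2.65 and 2.06 CPM in WT libraries. Sfrp2 was higher in KO (log2 change 1.18 ± 0.16, edgeR adjusted p = 7.42e-06). Sfrp4, known for its part in cortical bone and phosphate handling, had 2.92, 2.15 and 1.9 CPM in KO, 0.383, 1.21 and 0.721 in HET and 0.56, 0.603 and 0.981 CPM in WT libraries of day 14. KO was highest (log2 change 1.69 ± 0.34, edgeR adjusted p = 0.000362), and HET overlapped WT. At day 4 Sfrp4 had 3.86, 3.29 and 3.05 CPM in KO against 4.85, 4.31 and 3.24 CPM in WT libraries, a difference that did not pass the test (log2 change -0.30 ± 0.24, edgeR adjusted p = 0.283).

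Dkk3, a divergent member of the Dickkopf family (chr7:112116017-112159057, minus strand, GRCm38), marked HET cells. It had 65.7, 57.1 and 66.1 CPM in HET against 7.24, 6.26 and 5.42 CPM in WT libraries of day 14, higher in every HET library (log2 change 3.32 ± 0.18, edgeR adjusted p = 2.97e-10). KO libraries of day 14 held 4, 0 and 0 counts, or 0.169, 0 and 0 CPM, and were lower than WT (log2 change -6.69 ± 0.98, edgeR adjusted p = 3.49e-09). All of those counts came from replicate 1. With it left out, KO was at least 99.2-fold lower than WT and at least 994-fold lower than HET. With KO day 14 replicate 3 left out, the log2 change was -6.09 against WT and -9.41 against HET. At day 4 Dkk3 had 0, 0.064 and 0 CPM in KO against 0.732, 0.649 and 1.26 CPM in WT libraries, lower in KO by 41.4-fold by summed counts (95% counting interval 11.1 to 347; edgeR adjusted p = 9.21e-06). Notum, an enzyme that strips the lipid from Wnt ligands and is itself a pathway target, had 0.846, 0.503 and 0.791 CPM in KO, 0.431, 0.946 and 0.721 in HET and 1.91, 2.55 and 2.15 CPM in WT libraries of day 14. KO and HET overlapped each other below WT. For Notum, KO over WT gave a log2 change of -1.61 ± 0.27 (edgeR adjusted p = 6.21e-05). Notum in HET over WT gave a log2 change of -1.66 ± 0.28 (edgeR adjusted p = 7.05e-05). At day 4 Notum had 4.89, 5.88 and 4.76 CPM in KO against 4.02, 5.22 and 4.55 CPM in WT libraries. Notum libraries overlapped (log2 change 0.17 ± 0.18, edgeR adjusted p = 0.41).

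Wif1, the Wnt inhibitory factor, averaged 0.0141 ± 0.0244 CPM in KO, 0.031 ± 0.0269 in HET and 1.68 ± 0.521 CPM in WT cells of day 14 (SD, n = 3 each). It was lower in KO cells than in WT by 119-fold by summed counts (95% counting interval 20.9 to 4735; edgeR adjusted p = 1.28e-06) and in HET than in WT by 52.1-fold by summed counts (95% counting interval 14.1 to 436; edgeR adjusted p = 3.19e-06). Frzb, a Frizzled-related inhibitor of cartilage and joints, held no count in KO libraries of day 4 and averaged 1.88 ± 0.0856 CPM in WT cells of day 4 (SD, n = 3), so that it was at least 62.8-fold lower in KO (edgeR adjusted p = 1.49e-07). At day 14 it averaged 0.0416 ± 0.0397 CPM in KO, 0.218 ± 0.177 in HET and 0.652 ± 0.0441 CPM in WT cells (SD, n = 3 each), lower in KO cells than in WT by 15.4-fold by summed counts (95% counting interval 4.92 to 77.7; edgeR adjusted p = 0.000186). Its lower level in HET (log2 change -1.61 ± 0.53, edgeR adjusted p = 0.0141) lost its call without HET day 14 replicates 1 or 3 (edgeR adjusted p = 0.0551 to 0.0656) and its log2 change was -2.44 without HET day 14 replicate 2.

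**Figure D3:**
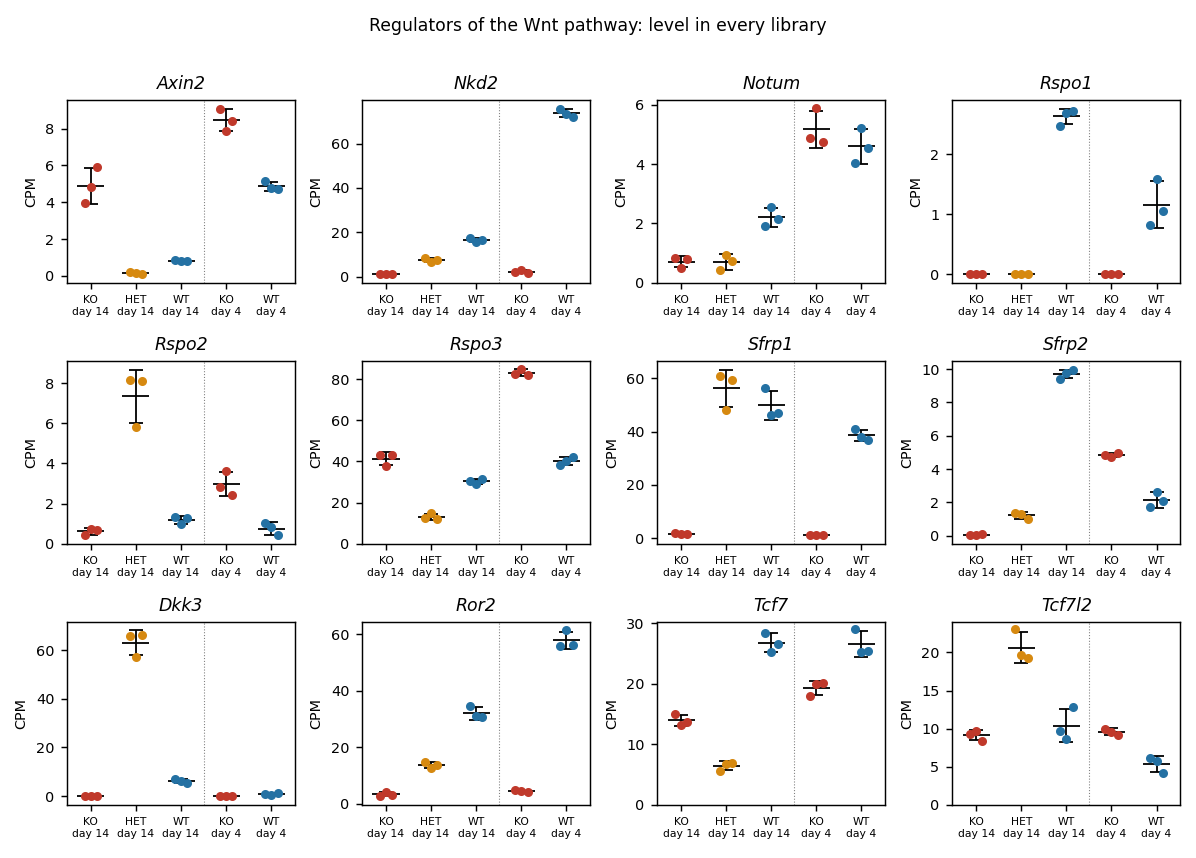
CPM of 12 regulators of the pathway in each library (points), with mean (bar) and SD (error bar) of the 3 libraries of a group; KO, HET and WT of day 14 stand left of the dotted line and KO and WT of day 4 right of it. Rspo1 is at 0 in all KO and HET libraries, Rspo2, Dkk3 and Tcf7l2 are highest in HET, and Nkd2 and Ror2 are highest in WT of day 4.

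Axin2, a known feedback target, and Nkd2, both inhibitors of the beta-catenin branch, went in opposite directions in KO cells. Axin2, a scaffold of the destruction complex, had 3.93, 4.85 and 5.89 CPM in KO, 0.24, 0.158 and 0.0901 in HET and 0.84, 0.835 and 0.794 CPM in WT libraries of day 14. KO was above and HET below WT, with no overlap. For Axin2, KO over WT gave a log2 change of 2.57 ± 0.23 (edgeR adjusted p = 1.95e-08). Axin2 in HET over WT gave a log2 change of -2.32 ± 0.50 (edgeR adjusted p = 6.09e-05). At day 4 Axin2 had 9.08, 7.87 and 8.42 CPM in KO against 5.14, 4.75 and 4.72 CPM in WT libraries. Axin2 was higher in each KO library (log2 change 0.79 ± 0.14, edgeR adjusted p = 0.000104). Nkd2, which binds Dishevelled (chr13:73818534-73847631, minus strand, GRCm38), had 1.18, 1.33 and 1.11 CPM in KO, 8.24, 6.52 and 7.57 in HET and 17.5, 15.4 and 16.6 CPM in WT libraries of day 14. The genotypes formed 3 separate levels with HET between. For Nkd2, KO over WT gave a log2 change of -3.77 ± 0.19 (edgeR adjusted p = 1.85e-11). Nkd2 in HET over WT gave a log2 change of -1.14 ± 0.13 (edgeR adjusted p = 1.03e-06). At day 4 Nkd2 had 2.11, 2.91 and 1.68 CPM in KO against 75.8, 73.3 and 72 CPM in WT libraries. For Nkd2 this was a log2 change of -5.05 ± 0.14 (edgeR adjusted p = 2.51e-14). Tested members often cited as beta-catenin targets gave no single direction in KO cells at day 14. Axin2, Rnf43 and Znrf3 were higher, and Notum, Lef1 and Tcf7 lower, than in WT cells.

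Between genotypes the core components Apc, Ctnnb1 and Axin1 differed by less than 1 on the log2 scale. Between days Apc changed more, and was lower at day 14 than at day 4 in WT cells (log2 change -1.37 ± 0.17, edgeR adjusted p = 3.59e-06). Apc, of the destruction complex, had 81.2, 88.4 and 91.8 CPM in KO, 109, 58.4 and 110.5 in HET and 68.8, 53.1 and 48.4 CPM in WT libraries of day 14. KO was higher than WT without overlap (log2 change 0.62 ± 0.18, edgeR adjusted p = 0.0065), and HET was higher too (log2 change 0.71 ± 0.18, edgeR adjusted p = 0.00276) although HET replicate 2 lay among the WT libraries. At day 4 Apc had 104, 102 and 109 CPM in KO against 148, 145 and 146 CPM in WT libraries. Apc was lower in KO (log2 change -0.48 ± 0.17, edgeR adjusted p = 0.0208), a call lost without KO day 4 replicates 1 or 2 (edgeR adjusted p = 0.0508 to 0.0585). Ctnnb1, which encodes beta-catenin, averaged 820.4 ± 10.7 CPM in KO, 767 ± 16.6 in HET and 609 ± 16.4 CPM in WT cells of day 14 (SD, n = 3 each). It was higher in KO (log2 change 0.43 ± 0.04, edgeR adjusted p = 2.37e-07) and in HET (log2 change 0.33 ± 0.04, edgeR adjusted p = 4.2e-06). At day 4 it averaged 824 ± 12.8 CPM in KO and 791 ± 9.37 CPM in WT cells (SD, n = 3 each) and did not pass the test (log2 change 0.06 ± 0.04, edgeR adjusted p = 0.215). Axin1, the constitutive scaffold of the complex, averaged 129 ± 5.86 CPM in KO, 116 ± 1.58 in HET and 121 ± 1.57 CPM in WT cells of day 14 (SD, n = 3 each). It passed the test in neither KO (log2 change 0.09 ± 0.04, edgeR adjusted p = 0.0795) nor HET (log2 change -0.07 ± 0.04, edgeR adjusted p = 0.218) against WT. At day 4 Axin1 was lower in KO cells than in WT, without overlap (log2 change -0.34 ± 0.04, edgeR adjusted p = 3.66e-06).

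TCF/LEF factors carry beta-catenin to DNA. In KO against WT at day 14, 3 of the 4 genes were lower and 1 was not called, when 32.2% of all genes were lower. Of the 3 at or above the filter level in both groups, 2 were lower. Tcf7 had 15, 13.2 and 13.7 CPM in KO, 5.6, 6.73 and 6.94 in HET and 28.4, 25.2 and 26.5 CPM in WT libraries of day 14. HET was lowest and KO between HET and WT. For Tcf7, KO over WT gave a log2 change of -0.94 ± 0.09 (edgeR adjusted p = 3.12e-07). Tcf7 in HET over WT gave a log2 change of -2.06 ± 0.10 (edgeR adjusted p = 1.12e-10). At day 4 Tcf7 had 18, 19.9 and 20.1 CPM in KO against 29, 25.2 and 25.3 CPM in WT libraries. Tcf7 was lower in KO (log2 change -0.46 ± 0.09, edgeR adjusted p = 0.000206). Tcf7l1, which acts mostly as a repressor, had 14.1, 12.7 and 13.3 CPM in KO, 14.9, 14.8 and 14.2 in HET and 21.5, 19.3 and 20.3 CPM in WT libraries of day 14. KO (log2 change -0.61 ± 0.08, edgeR adjusted p = 1.37e-05) and HET (log2 change -0.47 ± 0.09, edgeR adjusted p = 0.000178) were both below WT. At day 4 Tcf7l1 had 8.84, 8.41 and 8.33 CPM in KO against 8.94, 7.64 and 7.58 CPM in WT libraries. Tcf7l1 libraries overlapped (log2 change 0.08 ± 0.09, edgeR adjusted p = 0.453).

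Tcf7l2 had 9.3, 9.7 and 8.38 CPM in KO, 23, 19.7 and 19.2 in HET and 9.71, 8.63 and 12.9 CPM in WT libraries of day 14. HET was above all others (log2 change 0.99 ± 0.15, edgeR adjusted p = 3.14e-05), and KO overlapped WT (log2 change -0.19 ± 0.15, edgeR adjusted p = 0.302). At day 4 Tcf7l2 had 9.99, 9.59 and 9.1 CPM in KO against 6.15, 5.77 and 4.09 CPM in WT libraries. Tcf7l2 was higher in KO (log2 change 0.82 ± 0.15, edgeR adjusted p = 0.000182). Lef1, a factor that is itself a target of the pathway, was low: 0.0423, 0.0457 and 0.237 CPM in KO, 0.0958, 0.473 and 0.361 in HET and 0.467, 0.928 and 0.888 CPM in WT libraries of day 14. It was lower in KO cells than in WT (log2 change -2.71 ± 0.68, edgeR adjusted p = 0.000846), by 17.3-fold by summed counts without KO day 14 replicate 3 (95% counting interval 4.55 to 147). HET overlapped WT, and its lower level (log2 change -1.30 ± 0.52, edgeR adjusted p = 0.0363) lost its call without HET day 14 replicates 1 or 3 or WT day 14 replicates 2 or 3 (edgeR adjusted p = 0.0568 to 0.15). At day 4 Lef1 had 0.664, 0.831 and 0.605 CPM in KO against 2.1, 2.34 and 3.08 CPM in WT libraries. Lef1 was lower in KO (log2 change -1.82 ± 0.36, edgeR adjusted p = 0.00026).

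**Figure D4:**
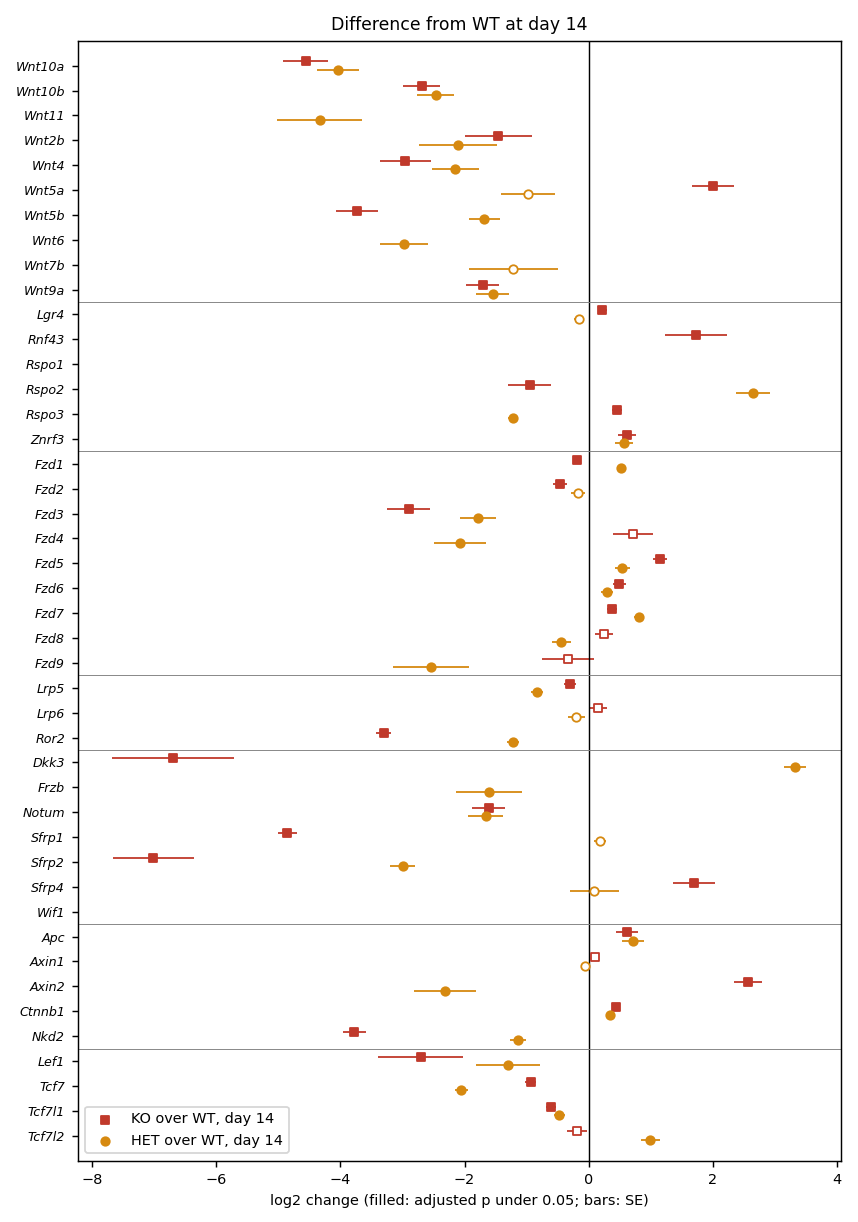
Log2 change from WT at day 14 (x axis; bars, SE of the fit) of KO (squares) and HET (circles) for the tested members, grouped by role; filled symbols passed an edgeR adjusted p of 0.05, and changes of members with 3 or fewer counts in a group (6 for KO and 3 for HET) are not drawn. Symbols lie mostly left of 0 among ligands, and Dkk3 lies far right for HET and far left for KO.

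Between day 4 and day 14, 5 of 10 tested ligand genes fell in KO cells, and 9 of 10 rose in WT cells. In KO cells 2 others, Wnt5a and Wnt5b, were higher at day 14 than at day 4 and 3 were not called. In WT cells the remaining 1, Wnt7b, was lower. Of all genes 30.1% were lower and 30.8% higher in KO cells, and 34.9% lower and 39.7% higher in WT cells. The filter keeps a gene on its highest group, which was WT of day 14 for 8 of the 10 ligands. At or above the filter level on both days were 3 ligands in KO cells, all 3 lower at day 14, and 5 in WT cells, all 5 higher. The summed ligand level given above was lower in every KO library of day 14 than in any of day 4, and higher in every WT library of day 14 than in any of day 4. The 5 intracellular genes tested gave 2 lower at day 14 than at day 4 in KO cells, Axin2 and Nkd2, and all 5 lower in WT cells. The interaction was positive and called for all 5, when 30.7% of all genes were called with a positive interaction.

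Lower at day 14 in KO cells and higher at day 14 in WT cells were 9 members, and no member was called the other way. They were the ligands Wnt4, Wnt6, Wnt9a, Wnt10a and Wnt10b, the receptors Fzd2 and Fzd7, and the inhibitors Sfrp2 and Wif1. The interaction was called for each of the 9, but genes chosen for opposite calls are likely to pass it. Of all genes 30.1% were lower at day 14 in KO cells and 39.7% higher in WT cells. The share of all genes with both calls was not computed, so the 9 are not read as particular to the module. Sfrp2 fell by 6.01 ± 0.65 on the log2 scale in KO cells (edgeR adjusted p = 1.08e-10) and rose by 2.18 ± 0.16 in WT cells (edgeR adjusted p = 4.72e-09); the fall was 111-fold by summed counts without KO day 14 replicate 3 (95% counting interval 30.5 to 916). Wnt10b fell by 2.43 ± 0.29 in KO (edgeR adjusted p = 1.76e-06) and rose by 4.83 ± 0.42 in WT cells (edgeR adjusted p = 2.48e-09). Wnt10a fell by 3.94 ± 0.37 in KO (edgeR adjusted p = 1.23e-08), a log2 change that was -4.54 without KO day 14 replicate 3, and rose by 1.08 ± 0.20 in WT cells (edgeR adjusted p = 0.00012). Wnt4 fell by 1.87 ± 0.42 in KO (edgeR adjusted p = 0.000764) and rose by 3.63 ± 0.42 in WT cells (edgeR adjusted p = 4.86e-07). The falls in KO cells were smaller for Fzd2 (log2 change -1.16 ± 0.11, edgeR adjusted p = 1.56e-07) and Fzd7 (log2 change -0.55 ± 0.08, edgeR adjusted p = 1.91e-05). For Wnt9a the fall in KO cells (log2 change -0.81 ± 0.27, edgeR adjusted p = 0.0155) lost its call without KO day 14 replicate 1 or KO day 4 replicate 2 (edgeR adjusted p = 0.0509 to 0.0639). The fall of Wif1 in KO cells, 7.73-fold by summed counts (95% counting interval 1.12 to 333; edgeR adjusted p = 0.0488), lost its call without KO day 14 replicates 2 or 3 or KO day 4 replicates 2 or 3 (edgeR adjusted p = 0.0548 to 0.165). Wnt6 was lower at day 14 in KO cells by 10.8-fold by summed counts (95% counting interval 3.46 to 54.2; edgeR adjusted p = 0.00397).

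**Figure D5:**
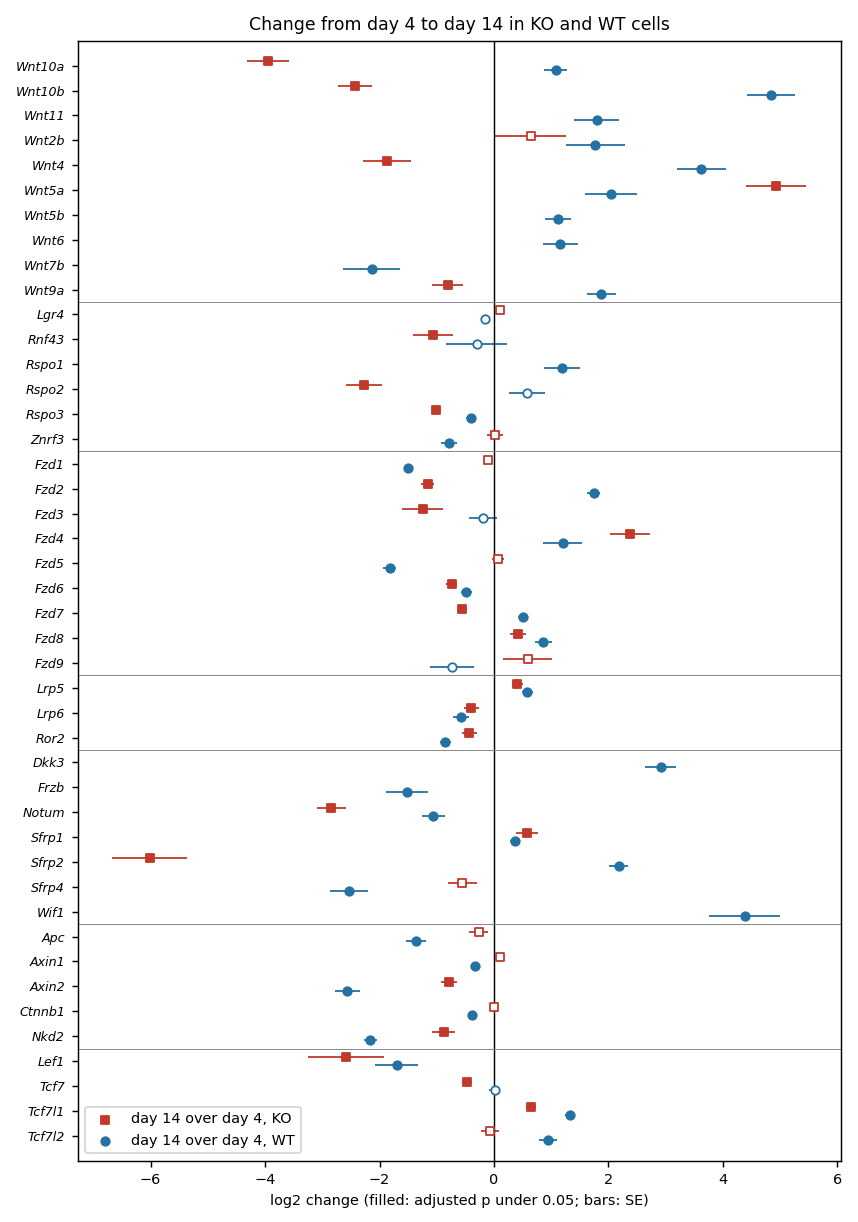
Log2 change from day 4 to day 14 (x axis; bars, SE of the fit) in KO (squares) and WT (circles) cells for the tested members, grouped by role; filled symbols passed an edgeR adjusted p of 0.05, and changes of 8 members with 3 or fewer counts in a KO group are not drawn for KO. Wnt4, Wnt9a, Wnt10a, Wnt10b and Sfrp2 lie left of 0 in KO and right of 0 in WT, and Wnt5a lies right of 0 in both.

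Some members changed over time in both genotypes alike in direction. Wnt5a was higher at day 14 in KO (log2 change 4.93 ± 0.52, edgeR adjusted p = 5.78e-08) and in WT cells (log2 change 2.04 ± 0.45, edgeR adjusted p = 0.000516), more so in KO (interaction, log2 change 2.89 ± 0.69, edgeR adjusted p = 0.0013). Axin2 was lower at day 14 in KO (log2 change -0.79 ± 0.14, edgeR adjusted p = 0.000191) and WT cells (log2 change -2.56 ± 0.22, edgeR adjusted p = 6.75e-09), less so in KO (interaction, log2 change 1.77 ± 0.27, edgeR adjusted p = 1.15e-05). Notum was lower at day 14 in KO (log2 change -2.84 ± 0.25, edgeR adjusted p = 3.63e-08) and WT cells (log2 change -1.06 ± 0.20, edgeR adjusted p = 0.000191), more so in KO (interaction, log2 change -1.78 ± 0.32, edgeR adjusted p = 0.000136). Fzd4 was higher at day 14 in KO (log2 change 2.38 ± 0.35, edgeR adjusted p = 2.18e-05) and WT cells (log2 change 1.20 ± 0.35, edgeR adjusted p = 0.00532). The difference between these changes (log2 change 1.18 ± 0.49, edgeR adjusted p = 0.0462) lost its call without KO day 14 replicates 1, 2 or 3, KO day 4 replicate 1, WT day 14 replicates 2 or 3 or WT day 4 replicates 1 or 3 (edgeR adjusted p = 0.0584 to 0.144). Lef1 was lower at day 14 in KO (log2 change -2.58 ± 0.67, edgeR adjusted p = 0.000976) and WT cells (log2 change -1.70 ± 0.38, edgeR adjusted p = 0.000652), the KO level by 15.8-fold by summed counts without KO day 14 replicate 3 (95% counting interval 4.22 to 133), and the interaction was not called (log2 change -0.88 ± 0.77, edgeR adjusted p = 0.289).

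The promoters of Axin2, the usual readout of the beta-catenin branch, and of the 7 opposite movers that the RefSeq table holds are shown because these members report the pathway or moved together. RefSeq (GRCm38.p6) promoters matched 41 of the 62 members, with 51 starts; each sequence gives the 250 bases before the RefSeq start, 5′ to 3′ on the strand of the gene. Capitals mark matches, on both strands, to 3 motifs: a TCF/LEF core (CTTTG followed by AA, AT, TA or TT), the cyclic AMP response element TGACGTCA and the GC box GGGCGG. The windows lie at chr11:108920099-108920348, plus strand for Axin2, chr1:59481897-59482146, plus strand for Fzd7, chr3:83766071-83766320, plus strand for Sfrp2, chr10:121033754-121034003, plus strand for Wif1, chr4:137277385-137277634, plus strand for Wnt4, chr1:74771642-74771891, plus strand for Wnt6, chr11:59306680-59306929, plus strand for Wnt9a and chr15:98778151-98778400, minus strand for Wnt10b.
Axin2: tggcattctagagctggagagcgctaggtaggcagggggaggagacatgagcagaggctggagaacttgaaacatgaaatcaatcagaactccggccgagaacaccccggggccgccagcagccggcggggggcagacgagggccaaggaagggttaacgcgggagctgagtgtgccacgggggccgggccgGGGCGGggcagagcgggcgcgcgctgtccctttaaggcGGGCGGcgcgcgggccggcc
Fzd7: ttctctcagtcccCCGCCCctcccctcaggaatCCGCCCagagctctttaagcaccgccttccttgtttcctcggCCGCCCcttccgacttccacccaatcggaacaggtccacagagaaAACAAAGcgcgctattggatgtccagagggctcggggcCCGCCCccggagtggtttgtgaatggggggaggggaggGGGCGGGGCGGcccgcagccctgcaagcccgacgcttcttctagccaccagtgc
Sfrp2: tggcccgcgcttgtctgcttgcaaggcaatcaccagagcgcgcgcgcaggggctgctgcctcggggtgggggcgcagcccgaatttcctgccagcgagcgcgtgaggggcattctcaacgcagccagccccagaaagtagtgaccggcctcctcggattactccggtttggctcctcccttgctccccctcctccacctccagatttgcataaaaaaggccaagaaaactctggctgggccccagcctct
Wif1: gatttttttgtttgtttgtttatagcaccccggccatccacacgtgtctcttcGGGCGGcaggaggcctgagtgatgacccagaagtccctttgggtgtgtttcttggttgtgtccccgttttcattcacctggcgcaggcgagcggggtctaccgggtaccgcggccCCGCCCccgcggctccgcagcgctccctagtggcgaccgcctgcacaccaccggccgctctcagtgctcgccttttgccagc
Wnt4: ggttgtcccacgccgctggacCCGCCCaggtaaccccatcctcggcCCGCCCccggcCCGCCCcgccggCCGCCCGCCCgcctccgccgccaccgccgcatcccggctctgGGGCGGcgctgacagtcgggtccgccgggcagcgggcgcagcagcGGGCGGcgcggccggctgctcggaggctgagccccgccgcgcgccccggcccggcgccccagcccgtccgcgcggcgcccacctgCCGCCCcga
Wnt6: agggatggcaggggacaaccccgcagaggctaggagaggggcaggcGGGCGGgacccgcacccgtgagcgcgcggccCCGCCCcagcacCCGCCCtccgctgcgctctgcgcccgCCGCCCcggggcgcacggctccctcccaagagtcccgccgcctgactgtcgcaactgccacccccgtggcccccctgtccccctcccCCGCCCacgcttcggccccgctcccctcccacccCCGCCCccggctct
Wnt9a: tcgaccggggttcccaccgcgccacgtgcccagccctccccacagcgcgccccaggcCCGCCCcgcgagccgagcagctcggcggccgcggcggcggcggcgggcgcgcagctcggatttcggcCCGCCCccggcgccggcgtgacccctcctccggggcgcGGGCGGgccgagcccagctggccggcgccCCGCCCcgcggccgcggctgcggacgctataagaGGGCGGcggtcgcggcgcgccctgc
Wnt10b: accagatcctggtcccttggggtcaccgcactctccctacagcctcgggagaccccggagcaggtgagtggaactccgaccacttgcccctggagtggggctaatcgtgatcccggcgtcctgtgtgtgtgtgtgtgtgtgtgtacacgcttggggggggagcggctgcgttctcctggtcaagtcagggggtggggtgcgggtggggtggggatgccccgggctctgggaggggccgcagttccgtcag

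Fzd7 alone of these 8 held a TCF/LEF core, on the strand opposite to the gene, 130 bases before the start. GC boxes numbered 6 in Fzd7, of which a pair near the start overlap each other, 8 in Wnt4, of which a pair also overlap, 6 in Wnt6, 5 in Wnt9a, 2 in Wif1 and 2 in Axin2, and there was none in Sfrp2 or Wnt10b; no match of one motif overlapped a match of another. Over the member promoters 11.8% held a TCF/LEF core, next to 14.8% of all 32851 promoters, and 68.6% held a GC box, next to 32.7% of all. None of the 51 held the cyclic AMP element, next to 1.55% of all. Member promoters had a median of 20 CpG pairs and all promoters 6, and the part of base composition in the GC box share was not tested. A match describes these letters only.

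For the tested members, HET cells did not simply lie between KO and WT cells at day 14. Of all genes, 63.1% were called in KO against WT, 58.3% in HET against WT and 59.5% in KO against HET. The share of all genes in each class below was not computed, so the counts are not read as particular to the module. For 8 members HET was between, with all pairwise tests called: Frzb, Fzd3, Fzd5, Nkd2, Ror2, Sfrp2, Wnt5b and Wnt6. Of these, Fzd3 lost the call of KO against HET without HET day 14 replicates 1 or 3 or KO day 14 replicate 3 (edgeR adjusted p = 0.0648 to 0.0878), and Frzb lost it without HET day 14 replicate 2 or KO day 14 replicates 1 or 2 (edgeR adjusted p = 0.0631 to 0.245). Frzb also lost the call of HET against WT without HET day 14 replicates 1 or 3 (edgeR adjusted p = 0.0551 to 0.0656). For 5 members HET was above both other genotypes with both tests called, namely Dkk3, Fzd1, Fzd7, Rspo2 and Tcf7l2, and for 8 it was below both: Axin2, Fzd4, Fzd8, Fzd9, Lrp5, Rnf43, Rspo3 and Tcf7. In that last class Fzd8 and Rnf43 lost the call of HET against WT without HET day 14 replicate 2. They also lost it without WT day 14 replicate 1 for Fzd8 and WT day 14 replicate 2 for Rnf43. For 15 members HET and KO both differed from WT and not from each other by the test, among them Wnt4, Wnt9a, Wnt10a, Wnt10b, Rspo1 and Notum. The log2 change of KO over HET was 4.89 ± 0.47 for Axin2 (edgeR adjusted p = 4.2e-10), 1.68 ± 0.08 for Rspo3 (edgeR adjusted p = 1.22e-10), -1.18 ± 0.15 for Tcf7l2 (edgeR adjusted p = 5.25e-06) and -2.08 ± 0.13 for Ror2 (edgeR adjusted p = 8.63e-10).

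Genes of the pathway outside the module moved in both directions. Of 50 further genes (among them the Dishevelled genes, Porcn, Wls, casein kinases, glypicans, TLE co-repressors and planar polarity genes), 46 were tested. In KO against WT at day 14, 21 were higher and 15 lower; in HET against WT 16 and 17; in KO against WT at day 4, 21 and 14. Of all genes, 30.9% were higher and 32.2% lower in KO against WT at day 14, 28.3% and 29.9% in HET against WT and 35.7% and 33.8% in KO against WT at day 4. Their median log2 changes in these comparisons were 0.17 for KO against WT at day 14, -0.08 for HET against WT and 0.19 for KO against WT at day 4, next to -0.02, -0.02 and 0.03 over all genes. The genes named here and in the next paragraph had the smallest adjusted p of their list in a direction and comparison. They are extremes of the lists, and each is given only for the comparisons in which it ranked so. Gpc4, a cell surface glypican, averaged 1.63 ± 0.535 CPM in KO and 31.3 ± 1.7 CPM in WT libraries of day 14 (log2 change -4.25 ± 0.19, edgeR adjusted p = 1.27e-11). Gpc4 averaged 0.802 ± 0.257 CPM in HET and 31.3 ± 1.7 CPM in WT libraries of day 14 (log2 change -5.27 ± 0.25, edgeR adjusted p = 5.91e-12). At day 4 Gpc4 averaged 0.524 ± 0.147 CPM in KO and 21.2 ± 1.74 CPM in WT libraries (log2 change -5.35 ± 0.25, edgeR adjusted p = 1.38e-12). These and the following errors of CPM are SDs with n = 3 each, and those of log2 changes are SEs of the fit. Ptk7, a co-receptor of planar polarity, averaged 19 ± 0.695 CPM in KO and 133 ± 9.47 CPM in WT libraries of day 14 (log2 change -2.81 ± 0.08, edgeR adjusted p = 2.93e-13). The casein kinases Csnk1d and Csnk1a1 were higher in KO cells than in WT at day 14. Csnk1d averaged 350.4 ± 3.28 CPM in KO and 205 ± 2.09 CPM in WT libraries of day 14 (log2 change 0.77 ± 0.04, edgeR adjusted p = 1.29e-10). Csnk1a1 averaged 341 ± 6.07 CPM in KO and 240.2 ± 8.18 CPM in WT libraries of day 14 (log2 change 0.50 ± 0.05, edgeR adjusted p = 1.26e-07). In HET libraries of day 14 Csnk1a1 was higher than in WT too, at 381 ± 17.1 CPM (log2 change 0.67 ± 0.05, edgeR adjusted p = 5.15e-09). Prickle1, a planar polarity gene, averaged 0.435 ± 0.247 CPM in HET and 15.3 ± 0.893 CPM in WT libraries of day 14 (log2 change -5.13 ± 0.33, edgeR adjusted p = 5e-11). Prickle1 averaged 5.08 ± 1.22 CPM in KO and 24.3 ± 0.39 CPM in WT libraries of day 4 (log2 change -2.25 ± 0.14, edgeR adjusted p = 1.15e-09). Tle4, a co-repressor that binds TCF/LEF factors, averaged 12.1 ± 0.975 CPM in HET and 2.95 ± 0.154 CPM in WT libraries of day 14 (log2 change 2.03 ± 0.13, edgeR adjusted p = 1.91e-09). Lgr6, an R-spondin receptor, averaged 6.95 ± 0.764 CPM in KO and 0.0769 ± 0.00789 CPM in WT libraries of day 4 (log2 change 6.44 ± 0.57, edgeR adjusted p = 2.55e-10). Tle2, a co-repressor, averaged 33.5 ± 1.46 CPM in KO and 5.89 ± 0.117 CPM in WT libraries of day 4 (log2 change 2.51 ± 0.10, edgeR adjusted p = 5.63e-12).

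Genes often cited as beta-catenin targets outside the module went in both directions at day 14, and more were lower than higher in KO cells of day 4. Of 22 such genes 18 were tested: 8 were higher and 6 lower in KO cells than in WT at day 14, 6 higher and 9 lower in HET than in WT, and 3 higher and 9 lower in KO cells than in WT at day 4. The median log2 change was 0.14 for KO against WT at day 14, -0.29 for HET against WT and -0.32 for KO against WT at day 4, next to the shares and medians of all genes just given. Ccnd1, which encodes cyclin D1, was higher in each comparison with WT. It averaged 39.2 ± 2.9 CPM in KO and 15.6 ± 0.532 CPM in WT libraries of day 14 (log2 change 1.33 ± 0.10, edgeR adjusted p = 2.52e-08). Ccnd1 averaged 27.8 ± 4.77 CPM in HET and 15.6 ± 0.532 CPM in WT libraries of day 14 (log2 change 0.83 ± 0.11, edgeR adjusted p = 5.71e-06). Ccnd1 averaged 41.1 ± 0.585 CPM in KO and 2.6 ± 0.243 CPM in WT libraries of day 4 (log2 change 3.97 ± 0.13, edgeR adjusted p = 1.52e-13). Mitf, the melanocyte and osteoclast factor, averaged 37.6 ± 2.44 CPM in KO and 7.87 ± 1.29 CPM in WT libraries of day 14 (log2 change 2.25 ± 0.13, edgeR adjusted p = 7.42e-10). Bmp4, a bone morphogenetic protein, averaged 4.13 ± 0.352 CPM in KO and 40.3 ± 3.5 CPM in WT libraries of day 14 (log2 change -3.28 ± 0.13, edgeR adjusted p = 8e-12). Bmp4 averaged 10.6 ± 1.13 CPM in HET and 40.3 ± 3.5 CPM in WT libraries of day 14 (log2 change -1.92 ± 0.12, edgeR adjusted p = 1.47e-09). Myc averaged 83.8 ± 1.95 CPM in KO and 353 ± 11.9 CPM in WT libraries of day 4 (log2 change -2.08 ± 0.05, edgeR adjusted p = 4.04e-15). Fosl1 averaged 67.5 ± 1.49 CPM in KO and 312 ± 12.6 CPM in WT libraries of day 4 (log2 change -2.21 ± 0.06, edgeR adjusted p = 2.17e-14). Most of these genes are known to respond to other pathways too. Edn1, endothelin 1, averaged 8.87 ± 1.02 CPM in HET and 0.698 ± 0.23 CPM in WT libraries of day 14 (log2 change 3.66 ± 0.31, edgeR adjusted p = 1.28e-07). Ccn4 averaged 35.8 ± 1.09 CPM in KO and 63.4 ± 5.32 CPM in WT libraries of day 14 (log2 change -0.82 ± 0.09, edgeR adjusted p = 7.62e-07). Ccn1 averaged 179 ± 13.2 CPM in HET and 284 ± 8.0 CPM in WT libraries of day 14 (log2 change -0.66 ± 0.05, edgeR adjusted p = 3.77e-08). Ccn5 averaged 18.1 ± 1.13 CPM in KO and 2.48 ± 0.559 CPM in WT libraries of day 4 (log2 change 2.89 ± 0.17, edgeR adjusted p = 3.48e-10).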

How the data were processed

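Raw counts of reads per Ensembl gene were deposited by the authors, one table for each of the 15 libraries. Per the submitters' processing notes, reads were processed with TopHat2 2.1.0, HTSeq and DESeq2 on GRCm38.p4, with annotation release and strand setting not given in the sources used here. Libraries were made with the TruSeq RNA Library Prep Kit v2, per the labels, which does not mark strand. Symbols were found for 46005 of 46603 gene IDs, and the 598 without held 0.0762% of the counts.

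Counts of all 15 libraries were fitted together by group in edgeR 4.0.16 (R 4.3.3) with TMM scaling, the default filter on low counts by group and the robust quasi-likelihood F test. The common biological coefficient of variation was 8.33%. P-values were adjusted by Benjamini-Hochberg over the 15296 genes tested, with a threshold of 0.05. Errors of log2 changes are SEs of the fit. Where a group held no count, a bound was computed with 3 counts for the whole group; with 1 to 3 counts, the ratio of summed counts is given with its 95% exact interval. Both cover counting error only. Levels per kb divide CPM by the exon length of GENCODE M21 (GRCm38), which also gave coordinates. All tests were two-sided and the fit was tested on simulated data.

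Members with a called change of at least 1 on the log2 scale and at least 2 CPM on average in the higher group are given with every library. The members, lists and tests were chosen with earlier results of these data known. Alternatives were DESeq2 1.42.0, RLE scaling, a stricter filter and none, fits of only the groups compared, a replicate block and each library left out.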

Additional observations from a re-analysis of the deposited data

Results flagged for a closer look

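The change from day 4 to day 14 differed between KO and WT cells by the interaction test in edgeR for 31 members, of which the 27 with more than 3 counts in each of the 4 groups follow. The values below are log2 changes of KO minus those of WT cells. A positive value therefore means that the change was more positive in KO cells. Among ligands the interaction was -7.27 for Wnt10b, -5.50 for Wnt4, -5.02 for Wnt10a, -2.68 for Wnt9a and 2.89 for Wnt5a. In the R-spondin axis it was -2.85 for Rspo2, -0.60 for Rspo3, 0.26 for Lgr4 and 0.80 for Znrf3. Among receptors it was -2.90 for Fzd2, -1.06 for Fzd7, -1.06 for Fzd3, 1.18 for Fzd4, 1.41 for Fzd1, 1.90 for Fzd5 and 0.42 for Ror2. Secreted inhibitors had -8.19 for Sfrp2, -1.78 for Notum and 1.99 for Sfrp4. Intracellular components had 1.77 for Axin2, 1.28 for Nkd2, 1.10 for Apc, 0.44 for Axin1 and 0.37 for Ctnnb1, and TCF/LEF factors had -1.01 for Tcf7l2, -0.69 for Tcf7l1 and -0.48 for Tcf7. The calls of Fzd3, Fzd4, Lgr4 and Ror2 were lost when single libraries were left out: that of Fzd3 without KO day 14 replicates 1, 2 or 3, KO day 4 replicate 2, WT day 14 replicates 1 or 2 or WT day 4 replicates 1, 2 or 3 (edgeR adjusted p = 0.0513 to 0.125), that of Fzd4 without KO day 14 replicates 1, 2 or 3, KO day 4 replicate 1, WT day 14 replicates 2 or 3 or WT day 4 replicates 1 or 3 (edgeR adjusted p = 0.0584 to 0.144), that of Lgr4 without KO day 14 replicates 2 or 3, KO day 4 replicates 1 or 3, WT day 14 replicates 2 or 3 or WT day 4 replicates 1 or 2 (edgeR adjusted p = 0.0507 to 0.104) and that of Ror2 without KO day 14 replicate 2, KO day 4 replicates 2 or 3, WT day 14 replicates 2 or 3 or WT day 4 replicate 2 (edgeR adjusted p = 0.0567 to 0.165). Without 1 library these values moved by more than 1.5-fold for some members: Sfrp2 had -8.82 without KO day 14 replicate 3 and Wnt10a had -5.61 without KO day 14 replicate 3.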

How the results depend on the processing

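The counts of members called in the 7 comparisons stayed within 1.5 times of those reported under every alternative. With single libraries left out, KO against WT at day 14 gave 11 to 13 higher and 23 to 27 lower members, HET against WT 9 to 11 and 24 to 26, and KO against WT at day 4 13 to 14 and 17 to 18. KO against HET gave 13 to 15 and 12 to 15, and WT cells between days 21 to 22 and 17 to 18. KO cells between days gave 6 to 8 higher and 18 to 19 lower, below the 21 lower of the full fit in each case. The interaction gave 12 to 16 and 15 to 17. Of 231 called changes of members, 202 kept their call and direction under every alternative, 29 lost the call under at least 1, and none reversed. With no filter, the median log2 change of all genes was -0.13 for KO against WT at day 14 and 0.43 for WT between days. Replicate numbers did not pair the samples: the correlation of same-numbered deviations ran from -0.150 to 0.179 over 30 pairs, with 1 above 0.1. With the replicate block, KO against WT at day 14 kept counts of 12 and 26, KO against HET gave 14 and 13, and the calls of Wnt10a (KO against WT, day 4), Fzd2 (KO against HET) and the interactions of Fzd3 and Fzd4 were lost.

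Of changes that had not passed the test, 14 changed sign under some alternative, and the cause was not tested. For Ctnnb1 in KO cells between days the log2 change was 0.005 with DESeq2 and 0.005 with RLE scaling. For Tcf7 in WT cells between days it was -0.007 with DESeq2, -0.006 with RLE scaling, -0.063 with no filter and -0.02 with only the groups compared. With single libraries left out, KO against HET ran from -0.337 to 0.054 for Apc, -0.202 to 0.306 for Notum, -0.374 to 0.178 for Wnt9a and -0.112 to 0.189 for Znrf3. KO against WT at day 4 ran from -0.051 to 0.001 for Lrp6, -0.082 to 0.805 for Wif1 and -0.915 to 0.132 for Wnt2b, and HET against WT from -0.366 to 0.002 for Lrp6 and -0.36 to 0.414 for Sfrp4. Between days, KO cells gave -0.014 to 0.008 for Ctnnb1, -0.195 to 0.864 for Fzd9 and -0.025 to 0.066 for Znrf3, and WT cells -0.704 to 0.153 for Rnf43 and -0.039 to 0.072 for Tcf7. Depth limits the members with few counts in a group, for which bounds and ratios stand in place of fitted changes.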
